A study of Homo sapiens with 12 samples.

Results

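Extracellular adenosine production and adenosine receptors were followed through 8 genes, namely NT5E and ENTPD1, AMPD3, ADK and ADA, and the receptors ADORA1, ADORA2A and ADORA2B. The genes were taken by symbol, and all 8 were present among the 25369 genes of the count and RPKM tables. Poly(A)+ RNA had been sequenced from 3 established human cancer cell lines, RKO from a colon carcinoma, A549 from a lung adenocarcinoma and H460 from a lung large cell carcinoma. Each line had been kept in normoxia or placed in 1% O2 for 24 h, which gave 6 groups of 2 libraries and 12 libraries in all. Replicates of a group are described as biologically independent. RKO and A549 had been grown in DMEM and H460 in RPMI, so a difference between H460 and the other lines cannot be told apart from a difference of medium. The sample descriptions name no introduced allele and no further agent, and each line is a culture derived from a single tumour. The question addressed was how the steady-state mRNA of these genes differed between normoxia and hypoxia in each line and between the lines.

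Adenosine outside the cell is made from released ATP in steps at the cell surface. ENTPD1 (CD39) hydrolyses ATP and ADP to AMP, and NT5E (CD73) hydrolyses AMP to adenosine. Inside the cell AMP can instead be deaminated to IMP by the AMP deaminases, of which AMPD3 is a member, and adenosine is either phosphorylated back to AMP by the kinase ADK or deaminated to inosine by ADA. Extracellular adenosine acts on G protein-coupled receptors: ADORA1 couples mainly to inhibitory G proteins and lowers cyclic AMP, whereas ADORA2A and ADORA2B couple to stimulatory G proteins and raise it. ADORA2A binds adenosine with high affinity and ADORA2B with low affinity. NT5E and ADORA2B are known for their regulation by hypoxia in epithelial and endothelial cells.

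Summed counts per library ranged from 27350424 to 41757584, and levels are given as CPM, read counts relative to library size with TMM scaling over the 12 libraries. All 6 hypoxia reference genes rose in RKO and H460 and 4 of 6 rose in A549, with CA9 higher in all lines by 4.45 to 6.81 on the log2 scale. Of 5 epithelial markers, 3 exceeded 1 RPKM in RKO and H460 and 4 in A549. Their sum was lower in hypoxia in RKO (132 and 129 against 70.1 and 73.4 RPKM), where KRT18 fell by 1.05 ± 0.15 on the log2 scale, and in A549 (1696 and 1411 against 1278 and 1226 RPKM), and higher in H460 (1142 and 1086 against 1234 and 1201 RPKM), where KRT19 rose by 1.22 ± 0.10. The lineage markers were sparse, since only 1 of 6 colon markers exceeded 1 RPKM in RKO, 1 of 6 lung markers in A549 and at most 1 of 6 in H460. Endothelial markers stayed below 0.111 RPKM in sum in every library, and of 5 immune markers 0 exceeded 1 RPKM in RKO and 1, CD14, in the other lines. In H460 the summed immune markers were lower in hypoxia (7.55 and 6.38 against 2.72 and 2.72 RPKM, through CD14) and the summed lung markers higher (0.344 and 0.536 against 1.46 and 1.56 RPKM, through NKX2-1). The summed fibroblast markers were higher in hypoxia in A549 (8.31 and 14.98 against 21.9 and 69.8 RPKM) and, at a far lower level, in RKO (0.0764 and 0.0923 against 0.302 and 0.379 RPKM), through COL1A1, which passed the filter in RKO only through the hypoxia libraries. In H460 their sum was at most 4.73 RPKM. The part of these markers in the results was not tested.

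In normoxia the lines differed most in NT5E, ADORA1 and ADORA2B. NT5E was at 68.3 and 79.0 CPM in A549 and at 66.1 and 67.8 CPM in H460, but at only 0.478 and 0.778 CPM in RKO, where 18 and 31 reads were counted. The log2 difference in level was -6.86 ± 0.29 (SE) for RKO minus A549 and -6.72 ± 0.29 for RKO minus H460 (edgeR adjusted p = 4.32e-11 and 5.17e-11), whereas A549 and H460 did not differ beyond their spread (0.14 ± 0.20, adjusted p = 0.579). NT5E mRNA was therefore the lowest by far in RKO. ADORA1 had the opposite order, with 353 and 346 counts in RKO (9.38 and 8.69 CPM), 32 and 24 counts in A549 (0.762 and 0.589 CPM), and 0 and 1 counts in H460. RKO exceeded A549 by 3.73 ± 0.35 on the log2 scale (edgeR adjusted p = 3.09e-07). Relative to the single H460 read, the RKO level was 562-fold (95% exact counting interval 101 to 22230) and the A549 level 42.2-fold (7.26 to 1695), intervals that cover counting error only.

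ADORA2B stood at 30.8 and 29.1 CPM in RKO, at 29.1 and 18.7 CPM in A549 and at 4.72 and 4.13 CPM in H460. Its normoxic level was higher in RKO and A549 than in H460 by 2.76 ± 0.21 and 2.43 ± 0.21 on the log2 scale, while RKO and A549 did not differ beyond their spread (0.33 ± 0.19, edgeR adjusted p = 0.150). Without the first A549 normoxia library that last difference was 0.68 and passed (adjusted p = 0.00636, from 0.00636 to 0.878 over the alternatives). AMPD3 was likewise higher in RKO and A549 than in H460, by 1.47 ± 0.25 and 1.15 ± 0.25. ADA ranked A549 over RKO over H460, each step past the threshold, with RKO minus A549 at -0.90 ± 0.23 and RKO minus H460 at 0.92 ± 0.24. ADK, at 34.5 to 44.8 CPM in all 6 normoxia libraries, showed no difference between any lines that passed the test, with log2 differences of 0.05 to 0.21. ADORA2A was below 0.3 CPM in every normoxia library and its levels also did not differ beyond their spread. Of the 7 genes tested, 3 had a called normoxic difference for RKO minus A549, where 60.2% of all 15595 genes did. For RKO minus H460 these were 5 of 7 and 61.9%, and for A549 minus H460 they were 4 of 7 and 52.1%. ADORA1 is among the 5 and the 4. It passed the filter on low counts only through RKO and A549 libraries, so its calls against H460 add nothing to these counts.

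**Figure D1:**
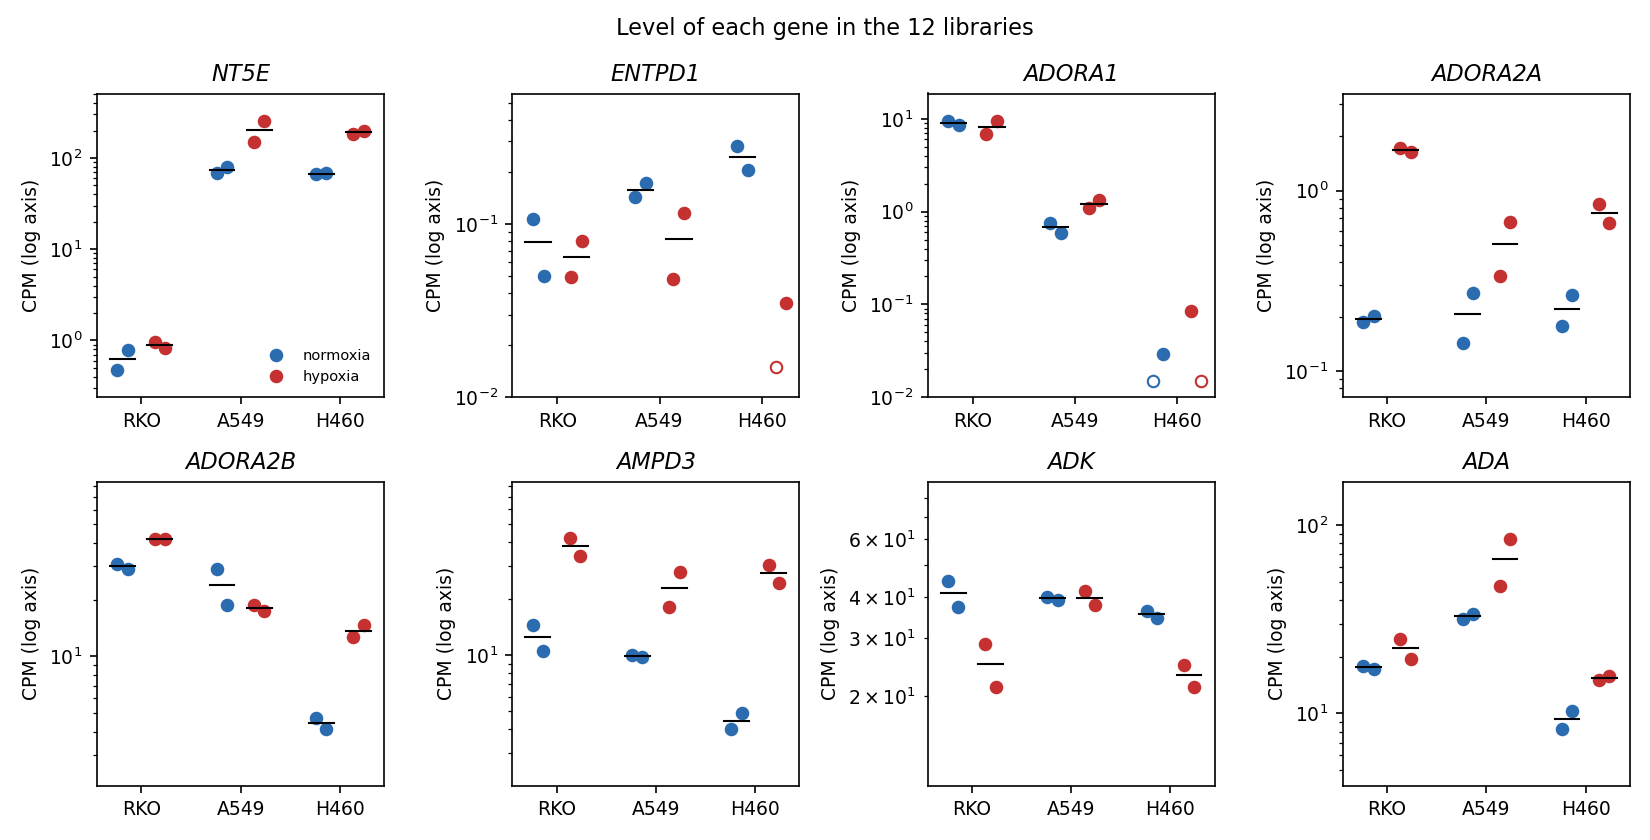
Level of each of the 8 genes in the 12 libraries as TMM-scaled CPM on log axes, with normoxia in blue, hypoxia in red and a bar at the mean of the 2 libraries; open symbols at the foot of a panel are libraries with 0 counts. AMPD3 lies higher in hypoxia in every line, NT5E is more than 60 CPM in A549 and H460 and below 1 CPM in RKO, and ADK lies lower in hypoxia in RKO and H460 but not in A549.

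A gene was called in a line when its Benjamini-Hochberg adjusted p in edgeR was under 0.1 and its fold change over 1.5. In RKO, hypoxia raised 2 of 7 tested genes, AMPD3 and ADORA2A, and lowered 1, ADK, where the shares called over all 12817 genes were 18.8% for higher and 15.1% for lower. In A549 it raised 2 of 6, NT5E and AMPD3, and lowered 0, with 2.22% and 0.456% of all genes called, and 3 of the 6 had an unadjusted p under 0.05, as had 16.6% of all genes. DESeq2 also called 0 lower. With the replicate number as a block ADA was called higher in A549 as well, where the block called 8.34% of all genes higher and 5.07% lower. In H460 it raised 5 of 6, namely AMPD3, ADORA2B, ADORA2A, NT5E and ADA, and lowered ADK, with 24.6% and 27.3% of all genes called higher and lower. ADORA2A passed the filter on low counts in RKO and H460 only through the hypoxia libraries, so its calls there add nothing to these counts. ENTPD1 was too low to test in any line, ADORA2A in A549 and ADORA1 in H460.

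AMPD3 (chromosome 11, 10471868 to 10529126, plus strand, GRCh37) was the gene of the 8 that rose in all 3 lines, a pattern shown by 0.977% of the 11873 genes tested in all of them. In RKO it was at 14.4 and 10.4 CPM in normoxia and 42.0 and 34.0 CPM in hypoxia. In A549 the values were 10.1 and 9.79 CPM against 18.0 and 27.8 CPM, and in H460 they were 4.01 and 4.90 CPM against 30.3 and 24.3 CPM. Every hypoxia library lay above both normoxia libraries of its line. H460 had the lowest normoxic level. In hypoxia its library at 24.3 CPM lay between the A549 libraries, that at 30.3 CPM above both, and each below both RKO libraries. The log2 fold changes were 1.55 ± 0.21 in RKO (edgeR adjusted p = 0.000431), 1.19 ± 0.26 in A549 (adjusted p = 0.0697) and 2.59 ± 0.16 in H460 (adjusted p = 5.08e-08). The increase in H460 exceeded that in A549 by 1.41 ± 0.34 and that in RKO by 0.997 ± 0.33 (adjusted p = 0.00743 and 0.0366). The A549 call rested on the second hypoxia library: without it the change was 0.85 and did not pass (adjusted p = 0.382, from 0.000125 to 0.382 over the alternatives), and it was also lost with library size scaling (1.09) and with limma on RPKM (1.03 and 0.78). The difference between RKO and H460 was lost with library size scaling (-0.60) and without the first RKO normoxia, second RKO hypoxia, first H460 normoxia or first H460 hypoxia library.

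AMPD3 was a minor AMP deaminase transcript by length-normalised level. Its share of the summed RPKM of AMPD1, AMPD2 and AMPD3 was 11.03% and 6.20% in RKO normoxia and 23.2% and 20.6% in hypoxia. In A549 the share went from 13.2% and 14.2% to 23.2% and 23.9%, and in H460 from 4.34% and 5.70% to 12.3% and 11.2%. AMPD2 held nearly all of the rest, at 76.1% to 95.7% over the 12 libraries, and AMPD1 at most 0.0838%. The hypoxic share of AMPD3 was above the normoxic share in every line with no overlap.

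NT5E (chromosome 6, 86159302 to 86205509, plus strand) rose in both lung lines. In A549 it went from 68.3 and 79.0 CPM to 152 and 255 CPM, a log2 fold change of 1.45 ± 0.24 (edgeR adjusted p = 0.0259) that was lost with limma on log2 RPKM plus 1 (1.27). In H460 it went from 66.1 and 67.8 CPM to 183 and 199 CPM, a log2 fold change of 1.497 ± 0.09 (adjusted p = 4.44e-08). The groups did not overlap in either line, and the changes corresponded to 2.73-fold and 2.82-fold. In RKO the values were 0.478 and 0.778 CPM in normoxia and 0.961 and 0.826 CPM in hypoxia, and the log2 fold change of 0.44 ± 0.42 did not pass (adjusted p = 0.436). Its 95% interval ran from -0.48 to 1.37, so a change of the size seen in A549 and H460 lay just outside it, and 31 to 39 reads in hypoxia set the precision. The RKO change was smaller than the H460 change by 1.01 ± 0.41 (adjusted p = 0.0820), a difference that no longer passed with library size scaling (-0.63) or when any of 7 libraries was left out, namely the second RKO normoxia library, either RKO hypoxia library or any H460 library. The difference between RKO and A549 (-0.96 ± 0.41) did not pass (adjusted p = 0.166) but did with DESeq2 (-1.003, adjusted p = 0.0888), without a filter (-0.95, 0.0533), without the first A549 hypoxia library (-1.29) and with the replicate number as a block (-0.91, adjusted p = 0.0913, from 0.0333 to 0.574 over the alternatives).

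ENTPD1 (chromosome 10, 97471536 to 97637023, plus strand), the enzyme upstream of NT5E, was barely represented in any library. It had 4 and 2 counts in RKO normoxia and 2 and 3 in hypoxia, and 6 and 7 against 2 and 4 in A549. In H460 the counts were 8 and 7 in normoxia and 0 and 1 in hypoxia. Normoxia over hypoxia gave a ratio of 12.6 in H460 with an exact 95% counting interval of 1.94 to 532, against 1.99 (0.707 to 6.40) in A549 and 1.21 (0.308 to 5.01) in RKO. Fitted without a filter on low counts, ENTPD1 was called lower in H460. ENTPD1-AS1, an RNA on the opposite strand of the same locus, had 13 to 66 counts per library, more than ENTPD1 itself in every library, and counting used the strand.

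ADK (chromosome 10, 75910943 to 76469061, plus strand) was the only gene of the 8 called lower. In RKO it went from 44.8 and 37.3 CPM to 28.9 and 21.4 CPM and fell by 0.77 ± 0.19 on the log2 scale (edgeR adjusted p = 0.00980). In H460 it went from 36.4 and 34.5 CPM to 24.9 and 21.4 CPM and fell by 0.63 ± 0.11 (adjusted p = 0.000212). In A549 the normoxia values of 40.2 and 39.2 CPM lay between the hypoxia values of 41.9 and 38.0 CPM. The A549 log2 fold change was -0.00 ± 0.19 with a 95% interval of -0.42 to 0.41 and an adjusted p of 0.993. The effect in A549 differed from that in RKO by 0.72 ± 0.24 and from that in H460 by 0.63 ± 0.24 (adjusted p = 0.0760 and 0.0650). Both differences were lost without the second A549 normoxia, the first A549 hypoxia or any H460 library, and that from RKO also without the first RKO normoxia or second RKO hypoxia library and with library size scaling (-0.60 for RKO minus A549). Without the second hypoxia library the fall was 0.56 in RKO and 0.50 in H460, under the 1.5-fold threshold although the adjusted p still passed (0.0239 and 0.00145, from 2.12e-05 to 0.0818 and from 3.68e-08 to 0.00730 over the alternatives).

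ADA (chromosome 20, 43248163 to 43280376, minus strand) was higher in hypoxia in every library pair, with no overlap in any line. So were AMPD3, NT5E and ADORA2A, and the share of all genes ordered in this way was not determined. The order of the libraries is therefore a description, here and for the other genes. ADA passed the test of the single line in H460 alone. In H460 it went from 8.26 and 10.3 CPM to 15.1 and 15.8 CPM, a log2 fold change of 0.72 ± 0.14 (edgeR adjusted p = 0.000746). In A549 it went from 31.8 and 33.9 CPM to 47.3 and 84.8 CPM, and the log2 fold change of 0.99 ± 0.26 did not pass (adjusted p = 0.118). The A549 change was called with DESeq2 (0.98, adjusted p = 0.0152), without a filter (0.98, 0.0359) and in the joint fit of 12 libraries (1.01, 0.0190). It was also called with the replicate number as a block (0.93, adjusted p = 0.000157) and without the first hypoxia library (1.34, 5.04e-05, from 5.04e-05 to 0.878 over the alternatives). In RKO the values were 18.0 and 17.2 CPM against 24.8 and 19.6 CPM, with a log2 fold change of 0.27 ± 0.19 (adjusted p = 0.282). The H460 call was lost without the first normoxia library, where the change was 0.53, and with library size scaling, where it was 0.36 and the median of all H460 genes moved by -0.352, and with limma on RPKM (0.37 and 0.33). The effects of RKO, A549 and H460 on ADA did not differ from each other past the threshold (adjusted p = 0.212 to 0.569), except for RKO minus A549 without the first A549 hypoxia library (-1.03, adjusted p = 0.0333, from 0.0333 to 0.719 over the alternatives).

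Among the receptors, ADORA2B (chromosome 17, 15848231 to 15879210, plus strand) was the main adenosine receptor transcript in every library. It made up 83.3% to 98.0% of the summed RPKM of ADORA1, ADORA2A, ADORA2B and ADORA3, and ADORA3 at most 0.686%. In H460 ADORA2B rose from 4.72 and 4.13 CPM to 12.7 and 14.7 CPM, by 1.62 ± 0.16 on the log2 scale (edgeR adjusted p = 2.43e-06). In RKO it went from 30.8 and 29.1 CPM to 41.7 and 42.0 CPM without overlap, and its log2 fold change of 0.42 ± 0.16 passed on p (adjusted p = 0.0590) but at 1.34-fold not on size. In A549 it was at 29.1 and 18.7 CPM in normoxia and 18.8 and 17.3 CPM in hypoxia, with overlapping groups and a log2 fold change of -0.42 ± 0.25 (adjusted p = 0.443). The effect of hypoxia on ADORA2B differed between every pair of lines. It was larger in H460 than in A549 by 2.04 ± 0.29 (adjusted p = 0.000319) and than in RKO by 1.15 ± 0.29 (adjusted p = 0.00807), and larger in RKO than in A549 by 0.89 ± 0.27 (adjusted p = 0.0610). The first 2 of these differences passed with every library left out in turn, and the last was lost without either RKO normoxia library, the first RKO hypoxia, the first A549 normoxia or the second A549 hypoxia library.

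ADORA2A (chromosome 22, 24819565 to 24838328, plus strand) was low in all lines and had its highest level in RKO hypoxia. In RKO 7 and 8 reads were counted in normoxia and 70 and 61 in hypoxia, or 0.186 and 0.201 CPM against 1.73 and 1.63 CPM. The log2 fold change was 3.03 ± 0.44 (edgeR adjusted p = 0.000610). In H460 the counts were 5 and 9 against 20 and 19, with a log2 fold change of 1.70 ± 0.45 (adjusted p = 0.00477), which with limma on log2 RPKM plus 1 was 0.16 and not called. In RKO and H460 ADORA2A passed the filter on low counts only through the hypoxia libraries. It had to be higher in hypoxia to be tested there, so these p values carry no weight and the counts are a description. In A549, not tested there, they were 6 and 11 against 14 and 23, a ratio of 2.37 with an exact 95% counting interval of 1.299 to 4.48. Each hypoxia library exceeded the normoxia libraries of its line, and even in RKO hypoxia ADORA2A was only 2.32% and 2.11% of the receptor RPKM. The RKO effect did not differ from the A549 effect past the threshold (1.84 ± 0.71, edgeR adjusted p = 0.123). It did so with library size scaling (1.97, adjusted p = 0.0954) and with the replicate number as a block (1.83, adjusted p = 0.0703). Without the first A549 normoxia or second A549 hypoxia library the difference was 2.23 and 2.397. RKO minus H460 was 1.36 ± 0.72 and did not pass (adjusted p = 0.177), but passed with library size scaling (1.75, adjusted p = 0.0734). ADORA2A passed the joint filter only through hypoxia libraries as well, which limits these differences. The readthrough transcript SPECC1L-ADORA2A shares sequence with ADORA2A on the same strand, and reads in shared exons were not assigned to either. The counts and receptor share of ADORA2A may therefore be too low, and the shares of the other receptors too high. SPECC1L-ADORA2A had 1 to 7 counts, from its unshared exons only. ADORA2A-AS1 on the opposite strand had 0 to 3 counts.

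ADORA1 (chromosome 1, 203096836 to 203136533, plus strand) showed no hypoxia effect that passed the test. In RKO it was at 9.38 and 8.69 CPM in normoxia and 6.95 and 9.38 CPM in hypoxia, with a log2 fold change of -0.21 ± 0.24 and a 95% interval of -0.74 to 0.33. In A549 it was at 0.762 and 0.589 CPM against 1.10 and 1.34 CPM, and the change of 0.83 ± 0.40 did not pass (edgeR adjusted p = 0.338). In H460 0 and 1 reads were counted in normoxia and 2 and 0 in hypoxia, which is at or below the 3 counts that a 0 allows. Within RKO the share of ADORA1 in the receptor RPKM was 16.4% and 16.1% in normoxia and 9.49% and 12.3% in hypoxia. In A549 and H460 the share of ADORA1 was at most 4.61%.

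**Figure D2:**
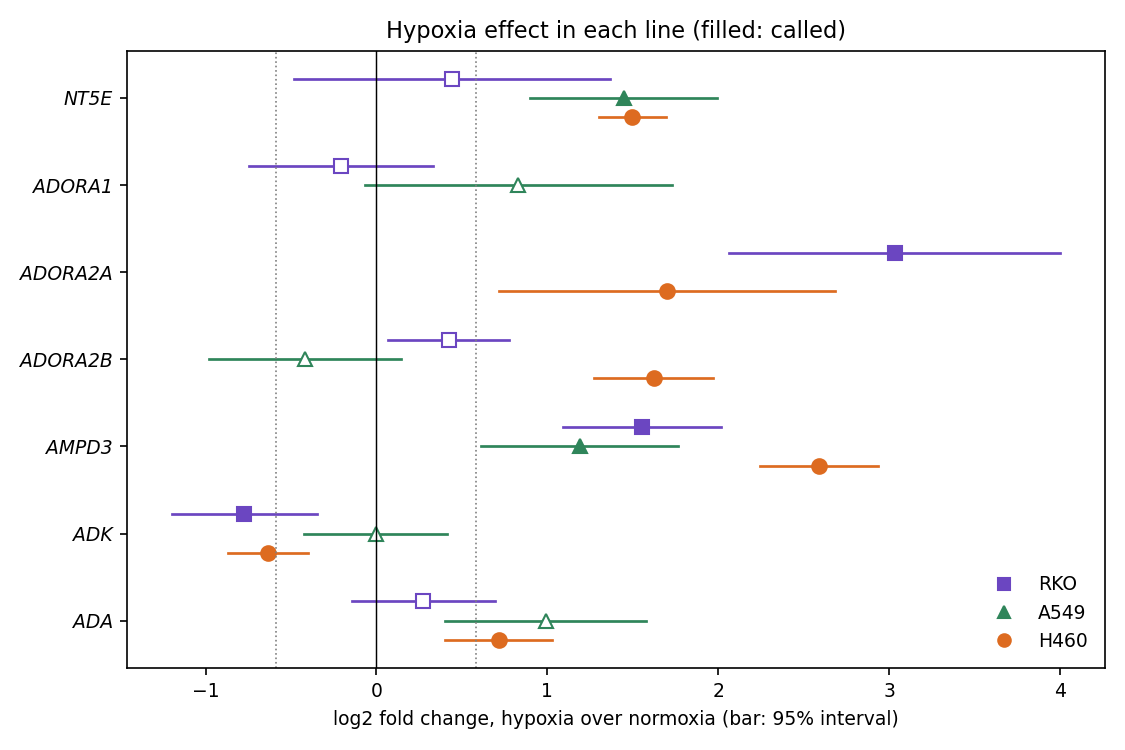
Log2 fold change of hypoxia over normoxia in each line with 95% intervals from the edgeR fits; squares are RKO, triangles A549 and circles H460, filled symbols are called genes and dotted lines mark 1.5-fold. AMPD3 is called higher in all 3 lines, ADORA2B spans from -0.42 in A549 to 1.62 in H460, and ADK is called lower in RKO and H460 and is at zero in A549.

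Averaged over the 3 lines in a joint fit, 4 of 7 genes were called higher and 0 lower, where 14.8% and 11.5% of all genes were called. ADORA2A is among the 4 and passed the filter only through hypoxia libraries, so its call adds nothing to this count. The average log2 effect was 1.81 ± 0.14 for AMPD3, 2.02 ± 0.29 for ADORA2A, 1.16 ± 0.15 for NT5E and 0.69 ± 0.13 for ADA. ADORA2B at 0.57 ± 0.12 and ADK at -0.44 ± 0.10 passed on p (edgeR adjusted p = 0.000905 and 0.00179) but not on size. The ADA average was lost without the second A549 hypoxia library (0.53) and with library size scaling (0.54), and the ADORA2B average was called without any of 5 libraries, reaching 0.69 without the first A549 normoxia library. At an unadjusted p under 0.05 the average effect passed for 6 of the 7, with ADORA1 the exception, and for 55.6% of all genes. ADORA2A is among the 6 and adds nothing to this count either. In the tests of a difference in effect, 2 of 7 genes passed for RKO minus A549 (14.6% of all genes). For RKO minus H460 3 of 7 passed (37.6%), and for A549 minus H460 also 3 (36.0%). These pairs share libraries and are not independent of each other.

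Ratios within a library do not depend on its scaling. ADK over ADA, the balance of transcripts for adenosine phosphorylation and deamination, was 1.57 and 1.37 by RPKM in RKO normoxia and 0.731 and 0.686 in hypoxia. In H460 it was 2.77 and 2.10 against 1.04 and 0.849. In A549 it was 0.793 and 0.726 against 0.556 and 0.281. The ratio was lower in hypoxia in every line with no overlap between conditions, with a lower mean ADK level in RKO and H460 and a higher mean ADA level in all lines. NT5E over ADK was 1.02 and 1.21 in A549 normoxia and 2.17 and 4.02 in hypoxia, and 1.09 and 1.18 against 4.40 and 5.59 in H460. In RKO it was far lower, at 0.00639 and 0.0125 in normoxia and 0.0200 and 0.0232 in hypoxia. The ratio was higher in hypoxia in every line with no overlap. These ratios are a description with 2 libraries a group and were not tested.

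**Figure D3:**
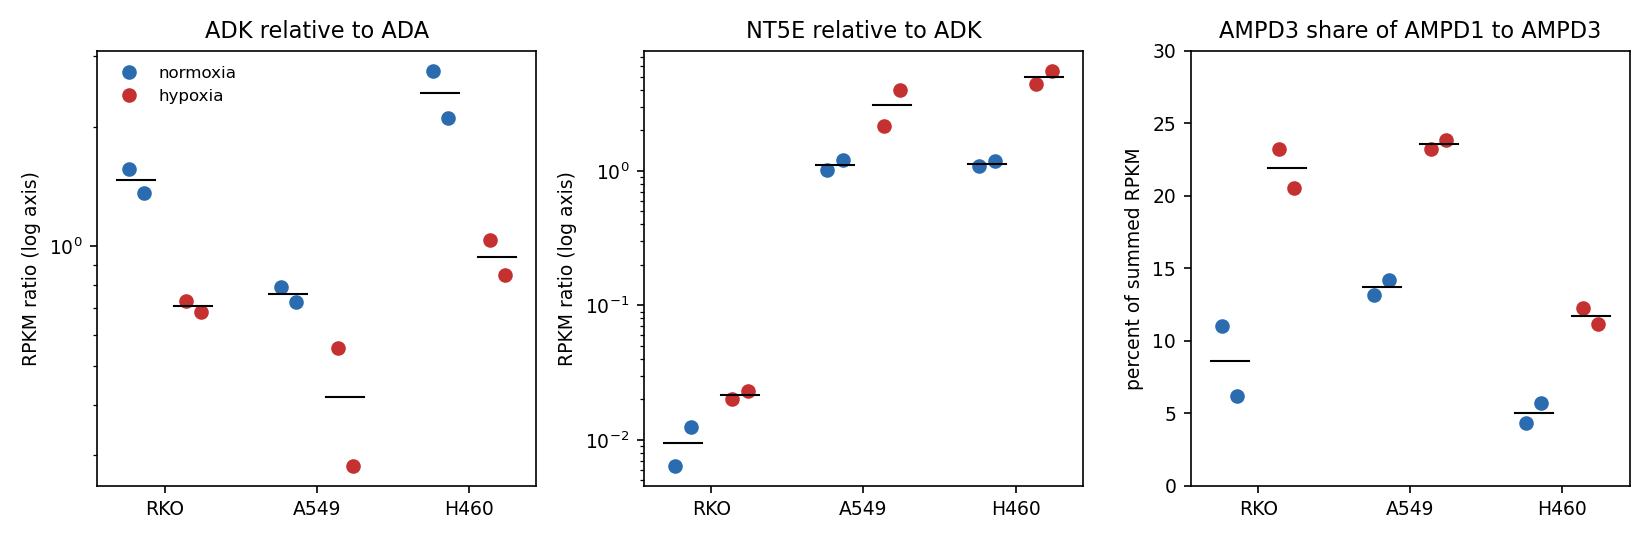
Ratio of ADK to ADA and of NT5E to ADK by RPKM on log axes, and the share of AMPD3 in the summed RPKM of AMPD1 to AMPD3 in percent, by library, with normoxia in blue, hypoxia in red and a bar at the mean. ADK over ADA is lower in hypoxia in each line, from 2.77 and 2.10 to 1.04 and 0.849 in H460, and the AMPD3 share is higher, from 4.34% and 5.70% to 12.3% and 11.2% in H460.

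Sequence upstream of the transcript starts was read for the genes whose levels moved, since hypoxia-inducible factors bind a core that reads ACGTG, or with another first letter GCGTG, and CREB, the factor that responds to cyclic AMP, binds TGACG as a part of its element. Windows of 250 bases before the start were taken from RefSeq on GRCh38.p14, which gave 15 windows for 7 of the 8 genes. All of these were searched on both strands, and capitals mark a match. A match of ACGTG on the other strand reads CACGT here. ADORA2B (chr17:15944880-15945129, plus strand) held GCGTG 229 bases before the start and TGACG 226 bases before it, with 2 shared bases. The windows shown are for AMPD3, which rose in all lines (chr11:10455806-10456055, plus strand, 1 of its 4 windows), NT5E, which rose in A549 and H460 (chr6:85449833-85450082, plus strand), ADORA2B, which rose in H460, and ADK, which fell in RKO and H460 (chr10:74176513-74176762, plus strand, 1 of its 2 windows).
AMPD3: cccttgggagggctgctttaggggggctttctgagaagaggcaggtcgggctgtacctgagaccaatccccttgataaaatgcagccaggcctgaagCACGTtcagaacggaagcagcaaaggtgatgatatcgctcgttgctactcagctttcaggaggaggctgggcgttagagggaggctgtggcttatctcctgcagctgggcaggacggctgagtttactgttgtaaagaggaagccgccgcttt
NT5E: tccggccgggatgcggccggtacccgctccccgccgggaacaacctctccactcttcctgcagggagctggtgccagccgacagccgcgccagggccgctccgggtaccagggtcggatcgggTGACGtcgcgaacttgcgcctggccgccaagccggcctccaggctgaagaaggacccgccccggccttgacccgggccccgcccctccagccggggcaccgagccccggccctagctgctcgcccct
ADORA2B: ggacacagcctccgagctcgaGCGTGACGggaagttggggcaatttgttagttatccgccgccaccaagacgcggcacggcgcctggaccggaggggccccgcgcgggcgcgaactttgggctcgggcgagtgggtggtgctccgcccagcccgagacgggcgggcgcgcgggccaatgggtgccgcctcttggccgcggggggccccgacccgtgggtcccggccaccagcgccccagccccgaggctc
ADK: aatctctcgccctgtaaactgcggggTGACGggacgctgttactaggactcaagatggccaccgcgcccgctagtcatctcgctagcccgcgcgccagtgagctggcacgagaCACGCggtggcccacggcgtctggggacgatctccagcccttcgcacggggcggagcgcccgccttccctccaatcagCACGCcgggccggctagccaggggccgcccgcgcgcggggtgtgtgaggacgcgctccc
AMPD3 had ACGTG on the other strand 153 bases before the start, with no match in its other 3 windows, and the first bases after this start were found in no GENCODE transcript, unlike those of 2 of the other 3. NT5E had TGACG 127 bases before it, and ADK had GCGTG on the other strand 137 and 59 bases before and TGACG 224 bases before it. ADA, not shown, had GCGTG 21 bases before its start. The factor core in either form was in 5 of the 15 windows (33.3%) against 43.2% of 35116 windows of all genes, and TGACG in 5 of 15 (33.3%) against 21.2%. The genes that rose and the gene that fell both had such letters, and a match describes the sequence only.

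The other genes of the pathway were read from lists of 99 genes, of which 96 were in the tables. In RKO 16 of 58 tested were called higher and 1 lower (27.6% and 1.72%, against 18.8% and 15.1% of all genes). In A549 3 of 69 were called higher and 1 lower (4.35% and 1.45%), and with the replicate number as a block or without the first A549 hypoxia library 8 were higher and 2 lower, where the block called 8.34% and 5.07% of all genes. In H460 22 of 64 were called higher and 18 lower (34.4% and 28.1%, against 24.6% and 27.3% of all genes). These became 14 and 24 with library size scaling, which called 14.7% and 40.9% of all genes higher and lower. The median log2 fold changes of the pathway genes in RKO, A549 and H460 were 0.15, 0.13 and 0.11, against medians of all genes of 0.01, -0.01 and -0.04.

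Nucleoside transport differed in direction between transporters. SLC29A4, a monoamine and adenosine transporter of the plasma membrane, rose in all 3 lines, from 11.4 and 12.02 to 37.3 and 33.1 CPM in RKO, from 15.8 and 12.2 to 32.8 and 46.2 CPM in A549 and from 3.55 and 4.11 to 11.1 and 9.39 CPM in H460. Its log2 fold changes were 1.53 ± 0.18, 1.48 ± 0.24 and 1.39 ± 0.17. SLC29A1, the main equilibrative nucleoside transporter, fell by 2.53 ± 0.12 in H460, from 67.6 and 56.0 to 10.7 and 10.9 CPM. In H460 SLC29A2 and SLC29A3 fell by 1.42 ± 0.14 and 1.295 ± 0.21, and none of these was called in RKO or A549, where SLC29A1 was at -0.56 and 0.61. The H460 and A549 effects on SLC29A1 differed by 3.14.

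Among the AMP deaminases and adenylate kinases, the calls were 2 higher among 8 tested for RKO, 1 among 9 for A549, and 3 higher with 1 lower among 7 for H460. The shares of all genes called higher were 18.8%, 2.22% and 24.6%, and 27.3% were called lower in H460. AK8 is among the 2 in RKO and passed the filter only through the hypoxia libraries, so its call adds nothing. The other was AK7, which rose there by 1.73 ± 0.39 on the log2 scale. AK4, a mitochondrial adenylate kinase, rose by 2.19 ± 0.26 in A549 and 2.54 ± 0.10 in H460 on the log2 scale, and in RKO it was at 144 and 115 CPM in normoxia and 167 and 167 CPM in hypoxia (0.31 ± 0.16, not called). AMPD2 rose in H460 by 1.26 ± 0.09, and AK1 fell there by 1.56 ± 0.12. Of the genes of adenosine removal and purine salvage, 1 of 7 was lower in RKO and 4 of 8 in H460, beside 15.1% and 27.3% of all genes, so the RKO count is at the background, and 0 were higher in any line. PNP, which cleaves inosine after ADA has made it, fell by 0.59 ± 0.16 in RKO and 1.31 ± 0.09 in H460 and was at 0.08 ± 0.22 in A549. MTAP, which recycles methylthioadenosine, fell in H460 by 1.08 ± 0.09. Of 10 cyclic AMP-responsive genes, 7 were higher in RKO, 0 in A549 and 7 in H460, beside 18.8%, 2.22% and 24.6% of all genes, and 1 was lower in A549, beside 0.456%. NR4A1 rose by 1.46 ± 0.22 in RKO and fell by 1.08 ± 0.25 in A549, PER1 rose by 0.83 ± 0.26 in RKO and 3.70 ± 0.11 in H460, and NR4A3 rose by 1.20 ± 0.35 and 1.70 ± 0.12 in the same lines. The list holds immediate-early genes that answer to other stimuli as well.

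ENTPD2, which hydrolyses ATP at the surface, had 98.0 to 142 CPM in RKO without a call, and rose in H460 from 11 and 4 to 67 and 67 counts. In A549 it had 7 and 15 counts in normoxia and 22 and 76 in hypoxia, a log2 fold change of 2.31 ± 0.71 that did not pass (edgeR adjusted p = 0.170) and did not differ from the H460 effect past the threshold (-1.09 ± 0.96, adjusted p = 0.430). ENTPD8 had 1 and 1 counts in RKO normoxia and 25 and 19 in hypoxia. ENPP1 fell in H460 by 1.83 ± 0.22. The intracellular ENTPD4 rose in RKO and H460 by 0.82 ± 0.15 and 1.08 ± 0.09. GJA1, a connexin of channels that can release ATP, went from 9 and 2 to 226 and 85 counts in RKO. ENTPD8, GJA1 and AK8 in RKO and ENTPD2 in H460 passed the filter only through the hypoxia libraries, so they had to differ and their calls carry no weight in the counts of the pathway lists. Among the P2 receptors for nucleotides, P2RY2 rose in A549 by 1.67 ± 0.28 and fell in H460 by 1.45 ± 0.43, and P2RX4 rose in RKO by 1.46 ± 0.18. P2RY6 had 22 and 29 counts in H460 normoxia and 1 and 1 in hypoxia. It passed the filter there only through the normoxia libraries, so it had to differ and its call carries no weight in the counts of the lists. Among the cyclases, ADCY6 rose in RKO and H460 by 0.99 ± 0.17 and 1.10 ± 0.09 and ADCY3 fell in H460 by 2.19 ± 0.10.

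**Figure D4:**
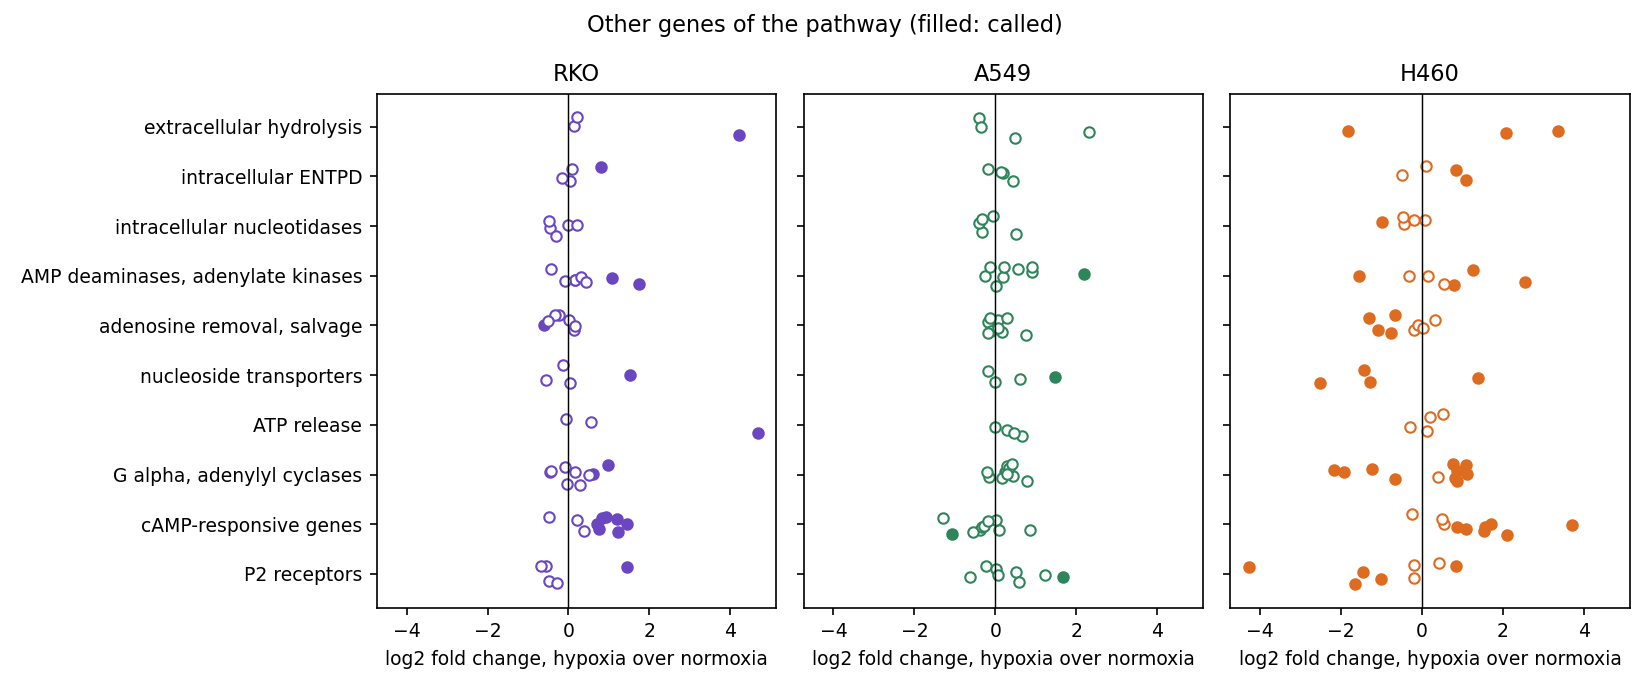
Log2 fold change of hypoxia over normoxia for the other genes of the pathway that were tested, by list and line; filled symbols are called genes. RKO has 16 filled symbols to the right and 1 to the left, A549 3 and 1, and H460 22 and 18.

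For each of the 7 genes that passed the joint filter, the genes most like it over the 12 libraries were found by Pearson's r of log2 CPM among genes with a mean of at least 100 counts. NT5E was closest to VIM (r = 0.996) and PALM (r = 0.995), AMPD3 to NARF (r = 0.981) and STX7 (r = 0.978), and ADK to FARS2 (r = 0.983) and NTHL1 (r = 0.954). ADA was closest to H19 (r = 0.981) and TMCC1 (r = 0.978), and ADORA2B to TNIK (r = 0.976) and MLF2 (r = 0.970). ADORA1 was closest to PALM3 (r = 0.994) and CORO2B (r = 0.991) and ADORA2A to SPSB3 (r = 0.9496) and DIP2A (r = 0.941). The points share lines and conditions, so these values describe likeness over 6 groups. With line means removed, r was 0.892 for NT5E and VIM, 0.987 for AMPD3 and NARF and 0.743 for ADORA1 and PALM3.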

How the data were processed

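Poly(A)+ RNA of 12 libraries was read from a single end after strand-specific preparation. The study trimmed reads and aligned them with TopHat2 (2.0.13) to GRCh37/hg19 with the UCSC annotation, dropped poorly mapped alignments, flagged duplicates with Picard (1.129) and counted exon reads with HTSeq (0.6.1) in reverse-stranded mode. The authors deposited a count per gene and library, the input of all main tests. The deposited RPKM value equalled the count over gene length and summed counts to within a relative 4.98e-12, and 0 value columns were left unused. Summed counts of 27350424 to 41757584 and 2 replicates a group set the precision. Exact counting intervals and floors cover counting error only. The 95% intervals and p values of the edgeR fits rest on the spread between these replicates, moderated with the spread of the other genes tested. They are narrower than 2 replicates of a single gene could give alone.

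Each line was fitted with edgeR (4.0.16, under R 4.3.3) by its quasi-likelihood F test with TMM scaling, over genes above 0.5 CPM in at least 2 libraries, and called at a Benjamini-Hochberg adjusted p under 0.1 and a fold over 1.5, the thresholds of the study, which used DESeq2. Averages, normoxic levels and differences between lines came from a joint fit of all libraries, and differences of effect used the adjusted p alone. SE values are the log2 value over the root of F. The edgeR script was tested on simulated data. Alternatives were DESeq2 (1.42.0), limma (3.58.1) on log2 RPKM plus 0.1 or 1, RLE or library size scaling, other filters and thresholds, the replicate number as a block and each library left out in turn. Counts of other pathway genes under 3 of these alternatives were added after the data were seen. Replicates of the same number deviated together to a limited degree (r = 0.339 in RKO, 0.343 in A549 and 0.115 in H460). No source states a pairing. The main tests did not use one, and the replicate number as a block was an alternative only.

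The genes, lists and tests were chosen with earlier results of these data known. The pathway list genes named are a selection, and not every called gene of a list is named. The likeness genes are the 2 closest. Coordinates are 1-based on GRCh37, and upstream sequences are from RefSeq on GRCh38.p14, which holds no window for ADORA2A among those used here.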

Additional observations from a re-analysis of the deposited data

Results flagged for a closer look

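The effect of hypoxia differed between lines, at an edgeR adjusted p under 0.1 for the difference itself, for the results below, each given as the difference of the log2 effects of the named lines. For RKO minus A549 it was -0.72 for ADK and 0.89 for ADORA2B. For RKO minus H460 it was -1.15 for ADORA2B, -0.997 for AMPD3 and -1.01 for NT5E. For A549 minus H460 it was 0.63 for ADK, -2.04 for ADORA2B and -1.41 for AMPD3. ADORA2B was the gene of the 8 that differed in all 3 pairs. Shares of all genes with such a difference were 14.6%, 37.6% and 36.0%, so the counts for pairs with H460 are to be read beside a high background.

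For a selection of the other pathway genes the largest such difference of each is given, and further genes of the lists passed as well. For RKO minus H460 it was -2.19 for AK4, 1.76 for AK1, -1.295 for AMPD2, 1.52 for SLC29A2, -3.11 for ENTPD2, 2.03 for ENPP1, 4.61 for GJA1 and 1.71 for P2RX4. For A549 minus H460 it was 3.14 for SLC29A1, 1.29 for SLC29A3, -0.90 for ENTPD4, 1.38 for PNP, 0.91 for MTAP, -0.84 for ADCY6, 2.03 for ADCY3, 3.13 for P2RY2 and 4.91 for P2RY6. In H460 P2RY6 passed the filter on low counts only through the normoxia libraries. ENTPD2 in H460 and GJA1 and ENTPD8 in RKO passed it only through the hypoxia libraries. The changes of these genes in these lines had to differ, so the differences that rest on them carry no weight as calls. Cyclic AMP-responsive genes for the same pair were at -1.24 for CREM, -2.02 for NR4A2, -2.99 for NR4A3, -1.64 for PDE4B and -3.98 for PER1. For RKO minus A549 it was 3.77 for ENTPD8 and 2.58 for NR4A1.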

How the results depend on the processing

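AMPD3 in RKO and H460, NT5E in H460 and ADORA2B in H460 kept direction and call under each of 15 alternatives, and the average effects of AMPD3 and NT5E under each of 17. Counts of genes called higher in A549 (2) became 1 with library size scaling, at an adjusted p under 0.05 and with limma on log2 RPKM plus 0.1, and 0 with limma plus 1, and became 3 with ADA added with DESeq2, without a filter, in the joint fit and with the block. With limma plus 1, 3 rather than 5 were called higher in H460. At a fold over 2, 0 were called lower in RKO and H460, and without a filter 2 were lower in H460. The average effect called 1 lower, ADK at -0.59, with library size scaling, and 1 without a filter. For differences between RKO and A549, genes with the higher effect in RKO went from 1 to 2 with library size scaling or the block, and those higher in A549 from 1 to 0 with library size scaling and to 2 without a filter, with DESeq2 or with the block. Library size scaling gave 1 gene higher in RKO than H460 rather than 0 and 1 higher in H460 rather than 3. The replicate block changed no other call than those given beside ADA, NT5E, ADORA2A and the other pathway genes, where in RKO 3 rather than 1 were lower (0 with library size scaling and 0 to 4 with a library left out).

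With each library left out in turn, genes called higher ranged from 1 to 2 in RKO, 1 to 3 in A549 and 4 to 5 in H460, and called lower from 0 to 1 in RKO and H460. ADORA2A fell under the filter on low counts without any hypoxia library of RKO or of H460. Differences of effect ranged from 0 to 1 and 0 to 2 for RKO against A549, 1 to 3 for those higher in H460 than RKO, and 0 to 1 for those higher in A549 than H460, and genes with a higher normoxic level in RKO than A549 from 1 to 2. Signs turned only for values that had not passed, which ranged as follows with a library left out. ADK ranged from -0.0926 to 0.0740 in A549 (0.0095 in the joint fit) and from -0.32 to 0.13 for RKO minus H460 (0.29 with library size scaling), and NT5E for A549 minus H460 from -0.47 to 0.28 (0.20). ADORA1 ranged from -0.43 to 0.0447 in RKO, -0.62 to 1.43 on average, -3.75 to 2.38 for RKO minus H460 and -2.78 to 3.35 for A549 minus H460. For A549 minus H460 ADORA2A ranged from -1.03 to 0.039 and ADA from -0.21 to 0.64. Normoxic ADORA2A differences ranged from -0.47 to 0.42 for RKO minus A549, -0.45 to 0.11 for RKO minus H460 and -0.63 to 0.27 for A549 minus H460, and that of ADK from -0.10 to 0.17 for RKO minus A549. The cause was not tested. Depth limits ENTPD1, ADORA2A, ADORA1 in H460 and NT5E in RKO, at 0 to 70 reads.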
